A study of Homo sapiens with 6 samples.

Results

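Replication-independent histone variants are 8 genes here, H2AZ1, H2AZ2, H2AX, MACROH2A1, H3-3A, H3-3B, H1-10 and CENPA, out of 62703 gene IDs in each of 6 libraries. They were chosen by symbol, as variants with polyadenylated messenger RNAs, and each symbol belonged to a single ID. The libraries held total RNA of SEM, a B-cell precursor acute lymphoblastic leukaemia cell line with the KMT2A::AFF1 fusion. In 3 libraries (KD) the cells had received a pair of Dicer-substrate siRNAs against the back-splice junction of AK_8_2, a circular RNA of the fusion gene, and in the other 3 (NC) a commercial non-targeting duplex. All cells of both groups went through the same lipid-based reverse transfection and a forward transfection 24 hours later. The work rests on this 1 line, and the series' design text calls the replicates independent without saying how the cultures were separated, so p-values measure the spread between these libraries. The question was whether the messenger RNAs of these variants differed between KD and NC, and how they compared with the replication-dependent histone genes.

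Most histone messenger RNA is made in S phase from clustered, intronless genes and ends in a stem-loop instead of a poly(A) tail. Replication-independent variants are not tied to S phase in this way, and several are placed into chromatin by chaperones of their own. CENPA transcripts peak late in the cell cycle, and H2AX is known to have a stem-loop form as well as a polyadenylated one. H2A.Z and H3.3 mark promoters and enhancers, H2AX is phosphorylated around DNA breaks, macroH2A carries a large non-histone domain, H1.10 is a linker histone and CENP-A replaces H3 at centromeres.

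Both libraries numbered 1 differed from the rest in their make-up, and so did KD replicate 3. Values of a group are given in the order of replicates 1, 2 and 3. Gene counts totalled 16531673 to 26694160 in KD and 14750579 to 24186646 in NC. Records outside annotated features made up 50.03% in KD replicate 1 and 48.6% in NC replicate 1, against 11.3% to 17.3% in the other 4 libraries. In KD replicate 3, 31.5% of the records aligned to several places and 6.79% of gene counts fell on mitochondrial ribosomal RNA, against at most 17.3% and 1.34% elsewhere. Of 10 B-cell precursor markers, PAX5 (850 to 1217 CPM in KD, 915 to 1258 CPM in NC), EBF1 and CD79A were at 130.2 CPM or more in every library, and DNTT stayed under 2 CPM. The 5 T-cell markers summed to 7.88, 0.0786 and 0.262 CPM in KD and 10.4, 0.348 and 0.175 CPM in NC, so they were near 0 outside replicate 1. The 4 erythroid markers summed to 2.53 CPM or less, the 5 myeloid ones to 25.6, 25.5 and 28.97 CPM in KD and 22.7, 29.3 and 27.7 CPM in NC, and the 5 stromal and epithelial ones, mostly PDGFRB, to 87.6, 104.7 and 87.3 CPM in KD and 87.0, 104.8 and 85.3 CPM in NC. Gene counts do not measure AK_8_2 itself, so its silencing was not checked. CPM are counts relative to the TMM-normalised library size. In bulk RNA, fewer cells of a type and less RNA per cell cannot be told apart.

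The transcript ends of the 8 genes were read from GENCODE 29 to set the polyadenylated variants beside the stem-loop histones. The stem-loop motif, GG then any 2 bases, CTTTT, any base, AG, any 2 bases and CC, was searched on the sense strand of the longest coding transcript. It was present in 25 of 64 replication-dependent histone genes (39.1%) and in 0.228% of 19331 protein-coding genes. Among the 8 variants, 1 held it, H2AX. A missing match does not show that a stem-loop is lacking, since annotated transcripts can end early and only this pattern was searched. The stretches below show the motif, in capitals, in H2AX beside H2AC6, a replication-dependent H2A gene. In the H2AX transcript of 1614 bases the motif begins at base 555, and in the H2AC6 transcript of 1654 bases at base 525. Both annotated transcripts thus run far past it, and this does not set H2AX apart from H2AC6.

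H2AX (chromosome 11): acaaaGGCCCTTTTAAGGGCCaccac

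H2AC6 (chromosome 6): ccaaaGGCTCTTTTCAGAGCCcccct

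Gene structure also divided the variants. H2AX and H1-10 have a single exon, as do 87.5% of the replication-dependent genes with a coding transcript and 5.85% of all protein-coding genes, while the other 6 variants have 3 to 9 exons. The GC content of the longest coding transcript was 66.4% for H2AX and 68.6% for H1-10, against 40.5% to 54.9% for the other 6. The sequence AATAAA lay in the last 50 bases of the longest coding transcript of 4 of the 8 genes, of 26.6% of the replication-dependent genes and of 60.8% of all protein-coding genes. Annotated transcripts can stop short of the true end, so a missing AATAAA says only that these letters are not in this window.

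Promoter sequences from RefSeq (GRCh38.p14) covered all 8 genes with 12 annotated starts. The CCAAT box was searched on both strands within 250 upstream bases, where its complement reads ATTGG. It was present in 9 of 12 variant promoters (75%), in 85.1% of replication-dependent histone promoters and in 32.0% of all 35116 promoters. TATAAA on the sense strand of the last 50 bases was present in 4 of 12 (33.3%), in 55.2% of replication-dependent histone promoters and in 2.63% of all. The 120 bases upstream of the start are shown for the 4 variants with TATAAA, H2AX and H1-10 among them, with the motifs of either kind in capitals. A match describes the letters and not a bound site.

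H2AX (chr11:119095466-119095585, minus strand): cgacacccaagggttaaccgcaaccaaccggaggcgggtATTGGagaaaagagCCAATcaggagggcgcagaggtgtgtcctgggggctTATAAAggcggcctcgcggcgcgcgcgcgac

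H1-10 (chr3:129316287-129316406, minus strand): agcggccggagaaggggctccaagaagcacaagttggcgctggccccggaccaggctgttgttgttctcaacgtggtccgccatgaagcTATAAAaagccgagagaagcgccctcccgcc

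H2AZ1 (chr4:99950276-99950395, minus strand): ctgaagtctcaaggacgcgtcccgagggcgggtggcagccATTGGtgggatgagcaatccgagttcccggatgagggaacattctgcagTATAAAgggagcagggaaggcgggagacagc

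H3-3B (chr17:75779780-75779899, minus strand): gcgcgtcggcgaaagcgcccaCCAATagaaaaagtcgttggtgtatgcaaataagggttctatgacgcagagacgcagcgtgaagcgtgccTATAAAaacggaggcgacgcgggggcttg

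H2A.Z and H3.3 are each encoded by a pair of genes, and their counts rest on how well reads can tell the pair apart. The coding sequences of H3-3A and H3-3B, 411 bases each, were 78.6% identical, with 88 differing bases and at most 14 identical bases in a row. Those of H2AZ1 and H2AZ2, 387 bases each, were 80.4% identical, with at most 23 identical bases in a row. The first 120 coding bases of the H3.3 pair show how densely the differences lie, with the differing bases in capitals.

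H3-3A (chromosome 1): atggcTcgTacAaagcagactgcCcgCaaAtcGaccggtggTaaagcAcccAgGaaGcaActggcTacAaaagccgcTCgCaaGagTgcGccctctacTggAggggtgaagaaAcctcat

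H3-3B (chromosome 17): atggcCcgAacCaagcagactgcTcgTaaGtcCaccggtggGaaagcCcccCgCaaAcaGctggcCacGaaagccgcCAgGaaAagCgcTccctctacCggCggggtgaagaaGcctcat

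All 8 variants were expressed in all 6 libraries, and KD and NC values of every one of them overlapped. H2AZ1 (ENSG00000164032.12, chromosome 4, 99948086 to 99950388, minus strand, GRCh38), the main source of H2A.Z, had 414, 437 and 479 CPM in KD and 452, 457 and 401 CPM in NC. Its level was almost flat: the highest library was 1.19 times the lowest, where the median over all tested genes was 1.53. H2AZ2 (ENSG00000105968.19, chromosome 7, 44826791 to 44848083, minus strand), the second H2A.Z gene, had 145, 189 and 182 CPM in KD and 136, 180 and 189 CPM in NC. Replicate 1 was the lowest library of each group for H2AZ2.

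H2AX (ENSG00000188486.4, chromosome 11, 119093854 to 119095467, minus strand) had 150.1, 287 and 235 CPM in KD and 149, 256 and 272 CPM in NC. It varied most of the 8, by 1.93 times between the highest and the lowest library, and replicate 1 was low in both groups. MACROH2A1 (ENSG00000113648.17, chromosome 5, 135333900 to 135399914, minus strand), a variant tied to gene silencing, had 339, 437 and 411 CPM in KD and 346, 422 and 418 CPM in NC. Replicate 1 was again the lowest library of each group, by less.

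H3-3A (ENSG00000163041.13, chromosome 1, 226061851 to 226072001, plus strand) had 99.4, 124 and 124 CPM in KD and 95.8, 123.4 and 128 CPM in NC. H3-3B (ENSG00000132475.10, chromosome 17, 75776434 to 75785893, minus strand), which encodes H3.3 as well, had 424, 484 and 488 CPM in KD and 419, 485 and 436 CPM in NC. The H3-3B values spanned 1.16 times, the narrowest range of the 8. In GENCODE 29, H3-3B overlaps UNK on the other strand, whose counts reached 16.01% of those of H3-3B, and without a stated strand setting reads from the overlap cannot be told apart.

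H1-10 (ENSG00000184897.7, chromosome 3, 129314771 to 129316277, minus strand) had 105, 191 and 158 CPM in KD and 105, 181 and 166 CPM in NC. Like H2AX it was lowest in replicate 1 of both groups, and its highest library was 1.82 times the lowest. CENPA (ENSG00000115163.15, chromosome 2, 26764289 to 26801067, plus strand) had 24.7, 32.9 and 32.5 CPM in KD and 27.2, 34.8 and 26.3 CPM in NC. GENCODE 29 places SLC35F6 over part of CENPA on the same strand, with up to 200% of the CENPA count, so CENPA reads in the shared part are uncertain.

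**Figure D1:**
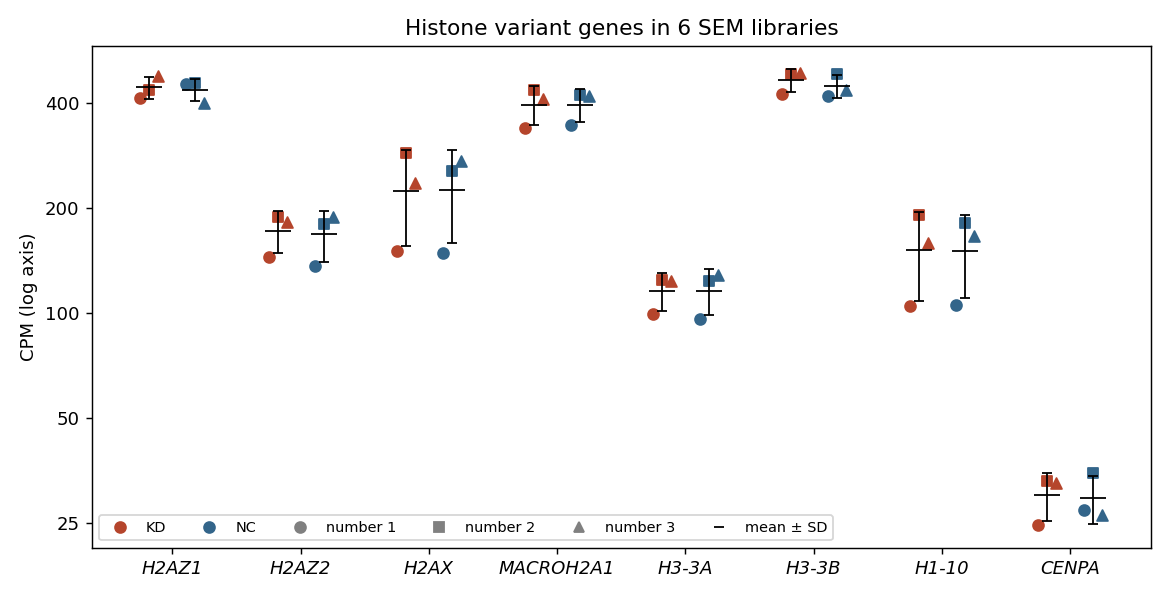
CPM (log axis) of the 8 variant genes in each library, KD left of NC, with the symbol giving the replicate number and the bar the mean and SD of 3 libraries. The KD and NC points overlap for every gene, and the replicate 1 libraries are low for H2AX (150.1 CPM in KD, 149 CPM in NC) and H1-10 (105 CPM in each group).

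Background reads made up little of these counts. Over 381 olfactory receptor genes, which B cells are not expected to use, the libraries held 3.96, 0.325 and 0.206 counts per kb of exon in KD and 3.73, 0.275 and 0.237 in NC. CENPA, the lowest variant by TPM, had 221, 422 and 313 counts per kb in KD and 220.4, 403 and 303 in NC. The receptor level was thus at most 1.79% of the CENPA level in KD and 1.69% in NC, both in replicate 1.

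Levels were compared between genes per length, as TPM computed from the union of annotated exons. H2AZ1 was highest, at 521 ± 24.9 TPM in KD and 540 ± 74.6 TPM in NC (± SD over 3 libraries). H2AX followed at 372 ± 93.5 TPM in KD and 390 ± 91.9 TPM in NC, then H1-10 at 269 ± 61.7 TPM in KD and 279 ± 49.6 TPM in NC. H3-3B had 205 ± 8.34 TPM in KD and 206 ± 10.02 TPM in NC, H3-3A 99.3 ± 4.43 and 104 ± 10.1 TPM, and H2AZ2 97.6 ± 6.59 and 99.9 ± 11.2 TPM in KD and NC. MACROH2A1 had 60.3 ± 4.36 TPM in KD and 63.0 ± 3.50 TPM in NC, and CENPA 40.8 ± 2.94 TPM in KD and 41.8 ± 3.71 TPM in NC. Every neighbour in this order kept its place in 6 of 6 libraries except H3-3A over H2AZ2, which held in 5 of 6 with ratios from 0.992 to 1.06. H2AZ1 exceeded H2AX by as little as 1.03 times in 1 library and by up to 2.13 times in another. H1-10 exceeded H3-3B by 1.007 to 1.60 times, so in both cases the neighbours nearly met in some library.

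The order depended on the length chosen. With the median length of the coding transcripts, H3-3B came first at 1053 TPM in KD and 1039 TPM in NC, H2AZ1 second at 596 and 605 TPM, and H2AX at rank 5 with 181 and 186 TPM. H3-3B has many short annotated transcripts, with a median of 581 bases against 6134 bases for the union of its exons. CENPA was last under both lengths.

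The balance within the gene pairs did not differ detectably between KD and NC. Per length of exon union, H3-3A gave 31.4%, 33.3% and 33.1% of H3.3 transcripts in KD and 30.8%, 33.2% and 36.4% in NC. The mean difference of -0.888 percentage points had p = 0.80 in a two-sided exact permutation test, which cannot go below 0.10 with 3 against 3. H2AZ1 gave 85.5%, 82.7% and 84.4% of H2A.Z transcripts in KD and 87.2%, 84.0% and 81.4% in NC, a mean difference of -0.0082 points (two-sided exact permutation p = 1.00). The level of each share depends on the length: with coding transcript length the H3-3A share was 10.7% in KD and 11.2% in NC, and the H2AZ1 share 63.5% in KD and 63.6% in NC.

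No variant passed the test between KD and NC. The quasi-likelihood test of edgeR, adjusted by Benjamini-Hochberg over 16929 genes, called 0 of the 8, beside 0.0% of all genes tested, and 52 genes (0.307%) had an unadjusted p under 0.05, none of them a variant. With the replicate number as a block, 0 of the 8 were called beside 29 genes (0.171%) of all. Again no variant had an unadjusted p under 0.05, beside 4.97% of all. The fit without the block had a larger common coefficient of variation between libraries, 0.372 against 0.0683. Its lack of calls therefore says little about a lack of change. Deviations from group means set number 1 apart (correlation 0.889 between KD 1 and NC 1). Numbers 2 and 3 correlated across numbers (0.590 and 0.553) about as well as within them (0.619 and 0.605), so their pairing is uncertain. DESeq2 called 1 gene of all (0.00595%) and none of the 8. The blocked estimate was above 0 for 6 of 8 variants, beside 48.0% of all genes. The values of 0 of 8 variants were free of overlap between the groups, beside 3.43% of all genes, and 0 of 8 moved the same way in all 3 pairs, beside 25.7%.

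The intervals are those of edgeR for the mean change of each variant. Their variance borrows from all genes tested, and those with the block also rest on the uncertain pairing. A single pair can lie outside them, as CENPA did in pair 3 at 0.31, so they do not bound what these libraries allow. H3-3B had the highest estimate, a log2 fold change of 0.058 with a blocked 95% interval from -0.040 to 0.16. H2AZ2 stood at 0.034 with the block (interval -0.069 to 0.14), CENPA at 0.033 (-0.15 to 0.22) and H2AZ1 at 0.021 (-0.14 to 0.18). H2AX stood at -0.0096 (-0.15 to 0.13), and MACROH2A1, H3-3A and H1-10 lay within 0.0015 of 0, with intervals of -0.094 to 0.092, -0.104 to 0.107 and -0.103 to 0.106. With the block, 8 of 8 variants had an interval that stayed within a 1.5-fold change up or down, as did 66.6% of all genes. Without it, 6 of 8 did, beside 50.7% of all. The 2 that did not were H2AX, from -0.72 to 0.70, and H1-10, from -0.64 to 0.65. These are also the 2 variants whose replicate 1 values lay furthest below their own values in the other libraries. Without both replicate 1 libraries and without a block, the H2AX interval ran from -0.24 to 0.21 and that of H1-10 from -0.22 to 0.24.

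**Figure D2:**
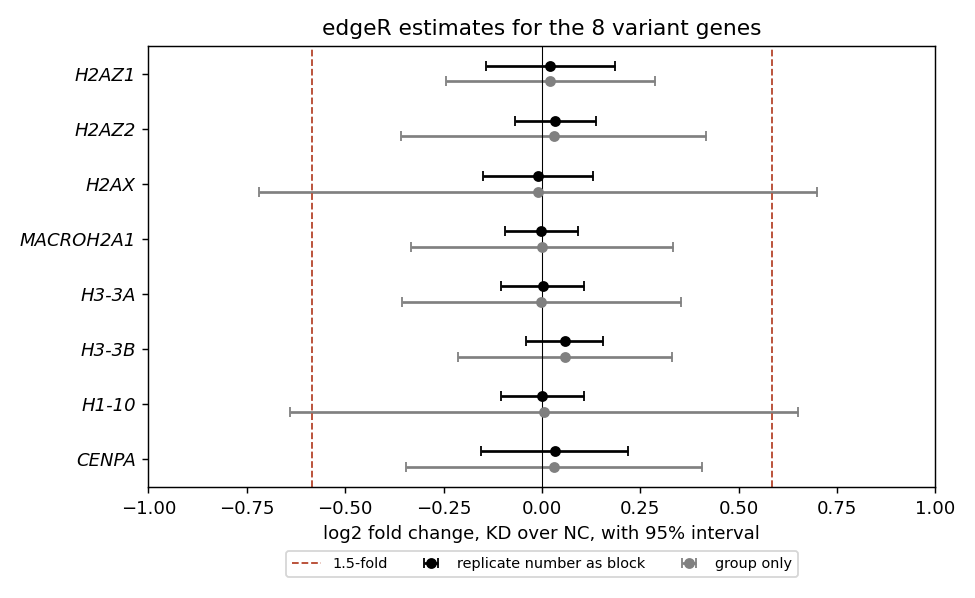
Log2 fold change of KD over NC (x axis) with its 95% interval from edgeR for each variant, with the replicate number as a block (black) and with group only (grey); dashed lines mark a 1.5-fold change. All black intervals lie inside the dashed lines, and the grey ones of H2AX and H1-10 cross them.

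Within replicate numbers the variants moved in different directions, and pair 3 spread them most. The KD minus NC differences of log2 CPM ran from -0.14 (CENPA) to 0.087 (H2AZ2) in pair 1 and from -0.080 (CENPA) to 0.16 (H2AX) in pair 2. In pair 3 they ran from -0.21 for H2AX to 0.31 for CENPA, with H2AZ1 at 0.26 and H3-3B at 0.16. H2AZ1 and CENPA were thus lower in KD in pairs 1 and 2 and higher in pair 3. Pair 3 holds the KD library in which 31.5% of records were multi-aligned, and the part of that library in these differences was not tested.

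The replication-dependent histones, of which 59 of 68 genes passed the filter on low counts, gave the contrast. Their median log2 differences were -0.038, -0.0095 and -0.29 in pairs 1, 2 and 3, against medians of 0.0047, 0.029 and -0.039 for the 8 variants and within 0.0048 of 0 for all genes tested. In pair 3, 1 of 59 replication-dependent genes was higher in KD, while 3 of 8 variants were. In pairs 1 and 2 the counts were 21 and 22 of 59, and 4 and 5 of 8. None of the 59 was called in either fit. The blocked estimate was below 0 for 57 of them, and 15 had an unadjusted p under 0.05, beside 4.97% of all genes. Those with the smallest unadjusted p without the block were H4C12 (blocked log2 fold change -0.49) and H4C14 (-0.76), both encoding histone H4, with blocked adjusted p of 0.833 and 0.971 from edgeR's quasi-likelihood test. Averaged over the pairs the variants exceeded the replication-dependent genes by 0.11 ± 0.12 (SD, n = 3 pairs), with 0.043, 0.039 and 0.25 in pairs 1, 2 and 3. The mean was smaller than its spread although the sign was the same in each pair, and without pair 3 it was 0.041. Of the 59 replication-dependent genes 23 were lower in KD in all 3 pairs, beside 12.6% of all genes. The 59 genes kept close to a shared profile over the libraries, so such counts are not 59 separate observations. The part of the multi-aligned records of KD replicate 3 in them was not tested.

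**Figure D3:**
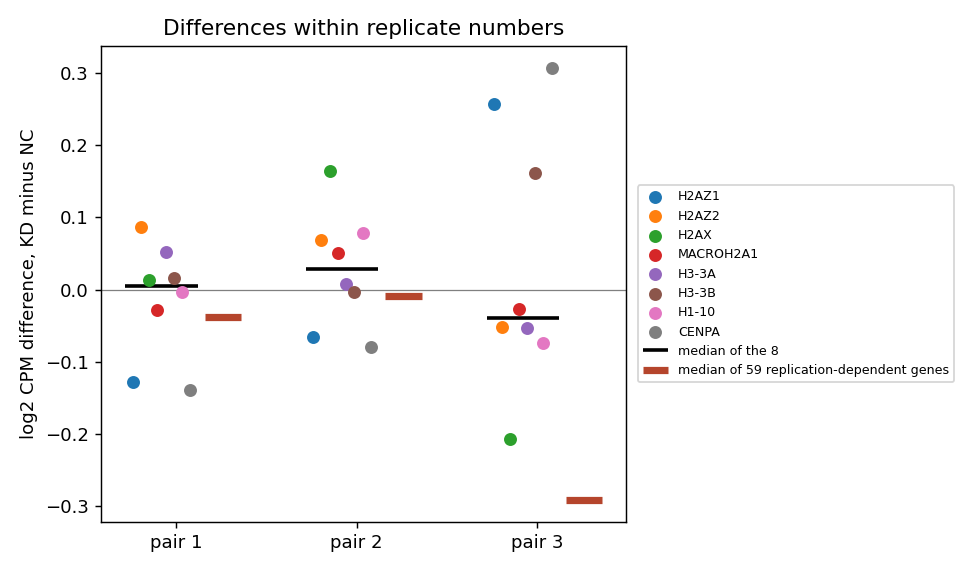
Log2 CPM difference of KD minus NC (y axis) within each replicate number for the 8 variants (points), with their median (black line) and the median of the replication-dependent genes (red line). The red line lies at -0.29 in pair 3, below all 8 variants, of which H2AX is nearest at -0.21.

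H2AX and H1-10 lay nearer than the other 6 variants to the median profile of the replication-dependent histones over the 6 libraries. The log2 CPM of H2AX in replicate 1 of both groups was 0.81 below its mean in the other 4 libraries and that of H1-10 0.73 below, against 0.033 for H2AZ1 and 0.40 for H2AZ2. The 55 replication-dependent genes that were tested and have a coding transcript in GENCODE 29 had a median of -0.94 and all protein-coding genes tested one of -0.060. Centred on its own mean, the H2AX profile over the 6 libraries lay at a root mean square distance of 0.073 from the median profile of the replication-dependent genes, which themselves lay at a median of 0.14. H1-10 lay at 0.0997, and the other 6 variants at 0.25 (H2AZ2) to 0.43 (H2AZ1). Of 16862 other genes tested, 2 lay as near as H2AX (0.0119%) and 23 as near as H1-10 (0.136%). These 2 were TIMM23B-AGAP6, a non-coding readthrough gene, and PPP4C, a subunit of a phosphatase that acts on phosphorylated H2AX, whose longest coding transcript has 9 exons. In replicate 1 alone, 1.72% of the other genes were as low as H2AX and 2.27% as low as H1-10. H1-10 lay nearer to SF1 (0.016) than to the replication-dependent median, and H2AX nearer to DMAC2 (0.050). Within pair 3, H1-10 differed by -0.073 between KD and NC, against a median of -0.29 for the replication-dependent genes.

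This likeness was noticed after the values were seen and is a description of 6 libraries of which 2 stand apart. Single-exon genes outside the histones (278 genes) had a median replicate 1 shift of -0.058, with quartiles of -0.30 and 0.52. Genes with more exons had the same median, with quartiles of -0.26 and 0.28. The third of genes with the highest GC content had a median shift of -0.16, with quartiles of -0.40 and 0.44, against 0.0032 for the third with the lowest. The parts of exon number, of GC content and of the stem-loop in the shift of H2AX and H1-10 were not tested.

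**Figure D4:**
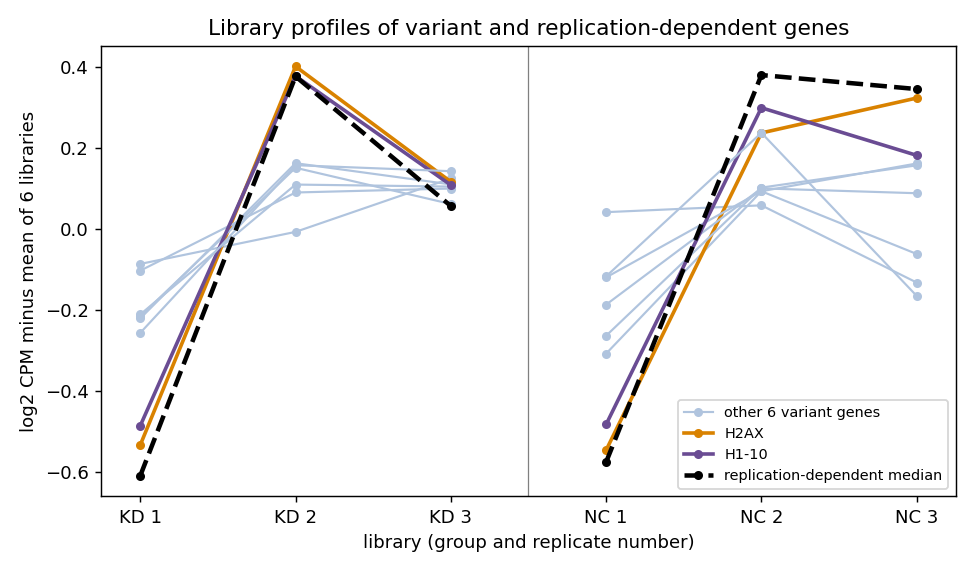
Log2 CPM minus the mean of the 6 libraries (y axis) for each library, KD left of NC, for H2AX, H1-10, the other 6 variants and the median of the replication-dependent genes (dashed). H2AX stands at -0.53 and -0.55 and the dashed line at -0.61 and -0.57 in the replicate 1 libraries of KD and NC, below the other 6 variants; lines join libraries of a group only to guide the eye.

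Other genes with similar profiles were named per variant from 9206 symbols at 10 CPM or more, by the smallest root mean square distance over the 6 libraries. They were KIRREL1 and DNAJC2 for H2AZ1 (0.022 and 0.028), SPIDR for H2AZ2 (0.016), DMAC2 and PSMA1 for H2AX (0.050 and 0.052), and GUF1 and TECR for MACROH2A1 (0.0066 and 0.0096). For H3-3A they were MAP3K3 and NCAPD2 (0.0063 and 0.016), for H3-3B QPRT and NPM1 (0.0094 and 0.021), for H1-10 SF1 and CEBPA (0.016 and 0.032), and for CENPA STING1 and RPUSD2 (0.035 and 0.050). Among the variants themselves, H2AZ2 and H3-3A were nearest to each other (0.029), as were H2AX with H1-10 (0.072) and H2AZ1 with H3-3B (0.084).

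Variant transcripts were a minor part of the transcripts of their histone class per length. H2AZ1, H2AZ2, H2AX and MACROH2A1 together gave 6.22 ± 0.938% of the summed TPM with 17 replication-dependent H2A genes in KD and 6.04 ± 1.71% in NC (± SD over 3 libraries). H3-3A, H3-3B and CENPA gave 4.66 ± 1.04% with 13 replication-dependent H3 genes in KD and 4.27 ± 1.12% in NC, and H1-10 gave 2.19 ± 0.221% with 5 linker genes in KD and 2.14 ± 0.182% in NC. With coding transcript length the H2A share was 15.4% in KD and 14.9% in NC and the H3 share 24.4% in KD and 22.7% in NC, while the H1 share kept the values above. Replication-dependent genes are near-identical copies and multi-aligned reads stand outside the gene counts, so these shares are uncertain.

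Variants outside the 8 had few counts. Of 13 such genes 2 passed the filter on low counts: H2AJ, an H2A variant, at 3.94, 2.36 and 2.41 CPM in KD and 3.36, 2.39 and 2.45 CPM in NC, and H3-5, a retrocopy of an H3.3 gene, at 0.42 to 0.62 CPM in KD and 0.26 to 1.43 CPM in NC. H2AB2 and H2AB3 had no count in any library, which allows up to 0.182, 0.112 and 0.142 CPM in KD and 0.203, 0.124 and 0.128 CPM in NC (3 counts of each total, without TMM scaling), for counting error only. Multi-aligned reads stand outside the gene counts, so these limits do not cover reads that match several gene copies. MACROH2A2, the second macroH2A gene, had 139, 3 and 1 counts in KD and 110, 1 and 4 counts in NC, so it was seen almost only in replicate 1, at 70.2 counts per kb in KD and 55.6 in NC.

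Pseudogenes named after these histones took few reads. The 55 genes named H3P, H2AZP or H2AZ2P summed to 35.1, 24.7 and 26.1 CPM in KD and 38.4, 24.4 and 30.3 CPM in NC, and 5 were tested, none of them called. The most counted, H3P6, had 11.7, 13.7 and 12.8 CPM in KD and 11.8, 14.6 and 13.6 CPM in NC. H3P16 had 4.62, 4.399 and 3.99 CPM in KD and 6.53, 4.18 and 5.20 CPM in NC, a blocked log2 fold change of -0.26 that did not pass. Reads of a pseudogene and of a gene it resembles can be placed on each other, so the values are uncertain.

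Among genes that place and read the variants, no list held a called gene in either fit, beside 0.0% of all genes without the block and 0.171% with it, so counts of 0 in lists this small are near the background. Over the 18 genes of the H2A.Z exchange complexes the estimates had a blocked median log2 fold change of -0.0011. MORF4L1, a chromodomain subunit, had 301, 320 and 325 CPM in KD and 249.4, 308 and 285 CPM in NC. It stood at 0.17 with the block (edgeR quasi-likelihood adjusted p 0.417). MORF4L1 was higher in KD in every pair, as were 13.1% of all genes, and its KD and NC values overlapped. ZNHIT1, a subunit of the SRCAP complex, stood at 0.077. The 8 H3.3 deposition genes had a blocked median of 0.026, with ASF1A, an H3-H4 chaperone, at 0.13 and DEK, an H3.3 chaperone, at 0.088. The 8 CENPA loading genes had one of 0.0012, with MIS18A, a licensing factor of centromere assembly, at 0.12 and CENPN, which binds CENP-A nucleosomes, at 0.086.

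The 11 genes that act on or with phosphorylated H2AX had a blocked median of -0.012, and 0 were called beside 0.171% of all genes. ATM, a kinase that phosphorylates H2AX, stood at -0.13 and RNF8, a ubiquitin ligase at breaks, at -0.097. The 14 general histone chaperones had a median of 0.031, and CHAF1B, a subunit of the replication-coupled chaperone CAF-1, stood at 0.13 (edgeR quasi-likelihood adjusted p 0.888 with the block) and NASP, a chaperone of soluble H3-H4, at 0.068. The 14 genes that make or process replication-dependent histone messenger RNA had a median of -0.0095. NPAT, which drives transcription of these histones, had 51.6, 59.3 and 50.3 CPM in KD and 61.1, 62.9 and 60.0 CPM in NC. All 3 KD values of NPAT lay below all 3 NC values. Over all genes tested, 1.77% were lower in KD without overlap and 1.67% higher. NPAT did not pass (-0.19 with the block, adjusted p 0.606 from edgeR). LSM10, of the U7 particle that cuts these messenger RNAs, stood at 0.0996.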

How the data were processed

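Counts per gene from 6 total RNA libraries of SEM cells, 3 KD and 3 NC, were analysed. Each deposited file is a table of raw counts in the htseq-count layout. The submitters' processing notes name hg38 as the build, DESeq2, and HTSeq 0.11.1, STAR 2.7.10a and FastQC 0.11.8 as tools. Neither the annotation release nor the strand setting is given in the sources used here. Multi-aligned reads have a summary line of their own. The 5 summary lines of each file, 66.2%, 39.8% and 52.2% of the records in KD and 66.5%, 40.9% and 46.7% in NC, stayed out of library sizes and tests. Of 62703 IDs, 62639 were in the name table, and a repeated symbol kept the ID with the highest mean count. Coordinates and lengths come from GENCODE 29.

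edgeR 4.0.16 in R 4.3.3 (filterByExpr, TMM, robust quasi-likelihood F test, adjusted p under 0.05) was fitted to all genes with group as the only term; limma 3.58.1 supplied its functions and DESeq2 1.42.0 an alternative. It was checked on simulated counts. Within-pair differences use log2 CPM with a prior count of 2. The replicate numbers were treated as pairs: deviations from group means correlated at 0.889, 0.619 and 0.605 across genes for numbers 1, 2 and 3, above the limit of 0.1, though KD 2 with NC 3 gave 0.590 and KD 3 with NC 2 gave 0.553. The values thus set number 1 apart and do not settle which libraries numbered 2 and 3 belong together. No 2 libraries of a group agreed within sampling noise (chi-square test of counts). TPM were computed per library from union exon length. Depth sets the precision of low genes.

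The members and lists were chosen with earlier results of these data known. Named genes are the 8 members, per list the called genes or else the 2 with the smallest p without the block (for the lists of other cell types and of receptors only sums or a few values are given), and per member the 2 nearest profiles; a few genes are not reported here.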

Additional observations from a re-analysis of the deposited data

How the results depend on the processing

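No variant was called under any of 14 alternatives per gene, with adjusted p from 0.980 to 1.00 (edgeR quasi-likelihood or DESeq2). Their estimates were near 0, so signs turned: MACROH2A1 stood at -0.0013 with the replicate block and -0.0092 with no filter, H3-3A at 0.0015 with the block, 0.0032 with DESeq2-type (RLE) size factors and 0.0032 with DESeq2, and H1-10 at -0.0054 with no filter. Leaving out 1 library gave -0.062 to 0.080 for H2AZ1, -0.10 to 0.15 for H2AZ2, -0.26 to 0.22 for H2AX, -0.11 to 0.11 for MACROH2A1, -0.12 to 0.10 for H3-3A, -0.0049 to 0.14 for H3-3B, -0.23 to 0.22 for H1-10 and -0.069 to 0.20 for CENPA. Leaving out 1 pair with the block gave -0.093 to 0.097 for H2AZ1, 0.00051 to 0.082 for H2AZ2, -0.12 to 0.096 for H2AX, -0.043 to 0.016 for MACROH2A1, -0.021 to 0.033 for H3-3A, 0.010 to 0.081 for H3-3B, -0.055 to 0.045 for H1-10 and -0.10 to 0.11 for CENPA. The count of called genes was 0 without and 29 with the replicate block, 1 with DESeq2 and 0 without any 1 library. With the block it was 5, 119 and 73 without pair 1, 2 or 3. The filter let about 16340, 29980 and 29970 genes into these fits, against 16929 with all pairs, so the counts are not directly comparable. The cause of the change was not tested. Leaving out 1 library moved the share difference from -2.21 to 0.596 points for H3-3A and from -1.41 to 1.51 for H2AZ1; with the replicate block, as mean within-pair differences, they were -0.888 and -0.0082. The variants minus the replication-dependent genes ran from 0.041 to 0.15, lowest without pair 3. With coding transcript length the mean TPM over 6 libraries were 600.5 for H2AZ1, 343 for H2AZ2, 183 for H2AX, 283 for MACROH2A1, 128 for H3-3A, 1046 for H3-3B, 132 for H1-10 and 28.7 for CENPA, against 531, 98.8, 381, 61.7, 102, 206, 274 and 41.3 with union length; the lengths themselves set these moves.

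A gene count does not show which transcript end was used.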
